A study of Rattus norvegicus with 6 samples.

Results

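The Notch genes described here are 4 receptors (Notch1, Notch2, Notch3 and Notch4), 3 ligands (Jag1, Jag2 and Dll4) and 3 target genes (Hey1, Heyl and Hes1). They were chosen by name: a gene is a member if a probe set, the group of short probes that reports a transcript on the array, is annotated with that gene alone. All 10 genes were found, each through 1 probe set, among 18166 named genes in the table. Their RNA was measured in thoracic aorta of untreated rats aged 24 weeks, on 3 arrays from SHR, the inbred spontaneously hypertensive strain, and 3 from WKY, the related Wistar-Kyoto strain with normal pressure. The tissue was whole aorta, cleaned of fat and connective tissue before freezing. The labels name no sex and do not tie each array to its own animal. The p-values therefore cover the spread among these 6 arrays, and part of it may be technical.

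Notch receptors are single-pass membrane proteins that are activated by ligands on a neighbouring cell. Ligand binding exposes the receptor to an ADAM protease and then to gamma-secretase, which releases its intracellular domain. That domain enters the nucleus and joins the DNA-binding protein RBPJ, which then activates genes of the HES and HEY families of transcriptional repressors. In arteries, endothelial cells carry DLL4, JAG1, NOTCH1 and NOTCH4, and smooth muscle cells carry NOTCH2, NOTCH3 and JAG1. Signalling between these layers helps to set arterial identity and the contractile state of smooth muscle.

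Of the target genes among the members, Hes1 and Heyl had a promoter window in the RefSeq promoter table (assembly GRCr8). A window runs from 250 bases before to 50 bases after the annotated start of a gene. The windows of both are shown because Hes1, a classical direct target of RBPJ, holds the RBPJ core motif and Heyl does not. That of Notch4 is shown because Notch4 had the smallest p-value among the members. The motif searched was TGGGAA on either strand, which reads TTCCCA on the opposite strand, and capitals mark each match. The Hes1 window is chr11:84212996-84213295, the Heyl window chr5:140793021-140793320 and the Notch4 window chr20:4189023-4189322. The genes lie on the minus, plus and minus strand in that order, and each line reads 5′ to 3′ along the gene.
Hes1: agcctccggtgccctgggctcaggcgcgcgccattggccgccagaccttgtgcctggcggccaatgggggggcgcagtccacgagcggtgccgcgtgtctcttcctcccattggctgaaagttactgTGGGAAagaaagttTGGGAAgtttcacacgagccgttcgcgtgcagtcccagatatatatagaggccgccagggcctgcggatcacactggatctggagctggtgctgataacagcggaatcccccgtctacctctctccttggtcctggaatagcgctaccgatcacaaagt
Heyl: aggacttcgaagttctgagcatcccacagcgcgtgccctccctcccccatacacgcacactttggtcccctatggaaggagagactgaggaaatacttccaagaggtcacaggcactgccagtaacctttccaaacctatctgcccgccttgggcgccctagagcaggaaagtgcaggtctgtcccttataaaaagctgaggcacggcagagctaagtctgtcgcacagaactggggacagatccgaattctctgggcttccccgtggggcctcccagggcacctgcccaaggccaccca
Notch4: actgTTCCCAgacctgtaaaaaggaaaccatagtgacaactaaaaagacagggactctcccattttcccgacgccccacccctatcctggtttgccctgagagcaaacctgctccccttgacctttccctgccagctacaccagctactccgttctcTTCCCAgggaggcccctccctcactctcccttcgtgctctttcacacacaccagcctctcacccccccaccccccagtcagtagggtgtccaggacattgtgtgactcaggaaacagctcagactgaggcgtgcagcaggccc

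The Hes1 window holds 2 matches, both on the strand of the gene, at 123 to 118 and at 109 to 104 bases before the annotated start. The Notch4 window also holds 2, both on the opposite strand, at 246 to 241 and 93 to 88 bases before the start. Of all 33469 promoter windows of 300 bases in the table, 25.7% hold at least 1 match and 3.85% hold at least 2. The table had windows for 8 of the 10 members. Among the other 6 of these, Notch3 had 1 match, after its start, and the windows of Notch1, Notch2, Jag1, Jag2 and Heyl had 0. Windows of target genes outside the members were also searched. Those of Hes5 and Hey2 held 2 matches each, each Hes7 window held 1, and those of Hes2, Hes6 and Nrarp held 0. A match is a string of letters, and neither its use by RBPJ nor a lack of binding elsewhere was measured here.

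In the comparison of the strains, none of the 10 Notch genes passed at a Benjamini-Hochberg adjusted p under 0.05 in limma, fitted on 21659 probe sets. Across all tested probe sets 0.0693% passed, which is 15 of them. The adjusted p-values of the members ran from 0.861 (Notch4) to 0.946 (Hes1). Measured levels were lower in SHR for 7 members, among them all 4 receptors, and higher for Jag2, Hey1 and Hes1, but the median difference was only -0.18 on the log2 scale. Over all 15281 tested named genes 49.1% lay below 0 and the median was 0.01. The median size of a difference, whatever its sign, was 0.23 log2 units for the members and 0.15 over all tested named genes. All 10 members lay above the median of the array on each of the 6 arrays (array medians 2.29 to 2.52), so none of the 10 was among the dimmer probe sets. The table holds no detection call, and levels of different genes are not compared with each other, since probes differ in brightness.

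**Figure D1:**
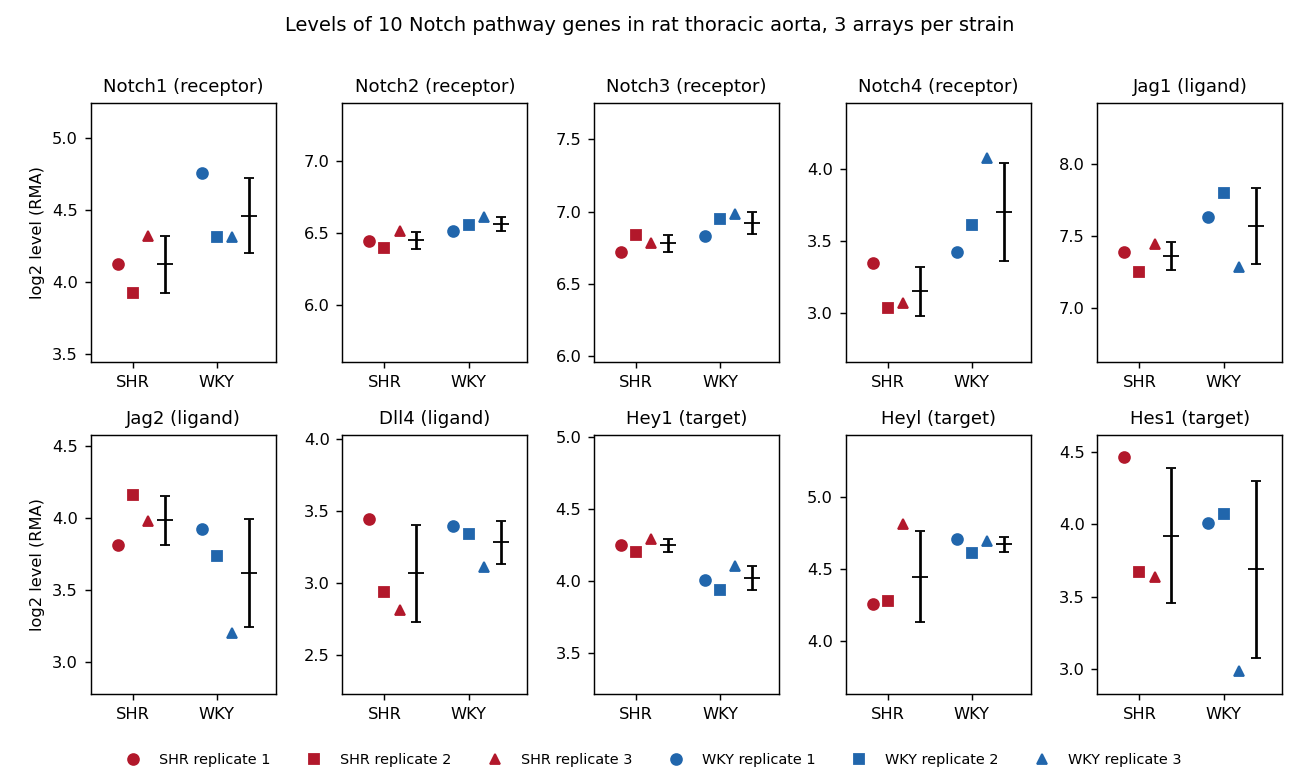
Log2 level of each of the 10 Notch genes on 3 SHR arrays (red) and 3 WKY arrays (blue), with the mean ± SD of each strain in black. All panels have the same height in log2 units. Notch2, Notch3 and Hey1 vary little, Hes1 varies most, and the strains do not overlap for Notch2, Notch4 and Hey1.

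Notch4, the receptor found mainly in endothelium, had the largest difference of the 10 genes. In SHR its log2 levels were 3.35, 3.04 and 3.07, in the order of replicates 1 to 3, and in WKY 3.42, 3.61 and 4.08. The values of the other genes follow in the same order. Every SHR array lay below every WKY array, by a gap of 0.07 between the nearest arrays, and WKY replicate 3 stood highest. The mean was 3.15 ± 0.17 (SD, n = 3) in SHR and 3.70 ± 0.34 in WKY, a difference of -0.55 ± 0.21 (SE), which is a linear ratio of 0.683. It was the only member with an unadjusted limma p under 0.05 (adjusted p = 0.861), and 5.55% of all tested probe sets reached that level. That count fell to 0 members without SHR replicate 2, and Notch4 itself missed the level when SHR replicate 2, SHR replicate 3 or WKY replicate 3 was left out. Without WKY replicate 3 its difference was -0.36. A 95% interval from -1.03 to -0.07 is not adjusted for the number of probe sets tested.

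Notch1, a receptor of arterial endothelium, lay at 4.13, 3.92 and 4.32 in SHR and at 4.76, 4.31 and 4.31 in WKY. WKY replicate 1 was above the other arrays and SHR replicate 3 was level with the 2 remaining WKY arrays, so the strains overlapped. The difference was -0.34 ± 0.19 (SE; limma adjusted p = 0.923), with a 95% interval from -0.78 to 0.10, and it was -0.19 without WKY replicate 1.

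Notch2 and Notch3 are the receptors of arterial smooth muscle, and Notch3 is the gene mutated in the inherited small-vessel disease CADASIL. Notch3 lay at 6.72, 6.84 and 6.78 in SHR and at 6.83, 6.95 and 6.98 in WKY. SHR replicate 2 and WKY replicate 1 overlapped by a small margin, and the other arrays kept their sides. Its difference was -0.14 ± 0.14 (SE; limma adjusted p = 0.923), with a 95% interval from -0.46 to 0.17. Notch2 lay at 6.44, 6.39 and 6.51 in SHR and at 6.51, 6.55 and 6.61 in WKY. The strains did not overlap, but the highest SHR array and the lowest WKY array were only 0.000645 log2 units apart. Its difference was -0.11 ± 0.13 (SE; limma adjusted p = 0.932), with an interval from -0.42 to 0.20. The estimate was -0.19 after a further quantile normalization and -0.063 with arrays centred on their medians. Under these settings Notch3 stood at -0.22 and -0.09.

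These 2 smooth muscle receptors were among the steadiest features on the array. The residual SD within strains was 0.05 for Notch2 and 0.07 for Notch3, at the 1.0 and 2.2 percentile of all tested probe sets. The variance model of limma draws such small SDs towards the typical one, which widens the intervals given above. Those intervals leave room for a fall of Notch3 of 0.46 log2 units, and neither interval reaches 1 log2 unit on either side.

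The ligands went in different directions and none was separated by strain. Jag1, a ligand of both endothelium and smooth muscle, lay at 7.39, 7.25 and 7.44 in SHR and at 7.63, 7.79 and 7.28 in WKY. WKY replicate 3 was as low as the SHR arrays, and the other 2 WKY arrays were above all of them. The difference was -0.21 ± 0.18 (SE; limma adjusted p = 0.923), and it was -0.35 without WKY replicate 3 and -0.10 without WKY replicate 2.

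Jag2, a second ligand of the Jagged type, lay at 3.81, 4.16 and 3.98 in SHR and at 3.92, 3.73 and 3.20 in WKY. The means were 3.98 ± 0.17 (SD, n = 3) and 3.62 ± 0.37, a difference of 0.37 ± 0.22 (SE; limma adjusted p = 0.923). SHR replicate 1 lay below WKY replicate 1, and the difference was 0.16 without WKY replicate 3, the lowest array. On the 6 arrays Jag2 and Notch4 ran nearly opposite: SHR replicate 2 was highest for Jag2 and lowest for Notch4, and WKY replicate 3 was lowest for Jag2 and highest for Notch4. Of all pairs of members this one had the most negative Pearson r (-0.96). With only 6 arrays and the most extreme pair picked, it is a description of these arrays.

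Dll4, the ligand that marks arterial endothelium, lay at 3.45, 2.94 and 2.81 in SHR and at 3.40, 3.34 and 3.11 in WKY. SHR replicate 1 was the highest of the 6 arrays and the other 2 SHR arrays were the lowest. The difference was -0.21 ± 0.20 (SE; limma adjusted p = 0.923), with a 95% interval from -0.69 to 0.26. It was -0.40 without SHR replicate 1 and -0.09 without SHR replicate 3.

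**Figure D2:**
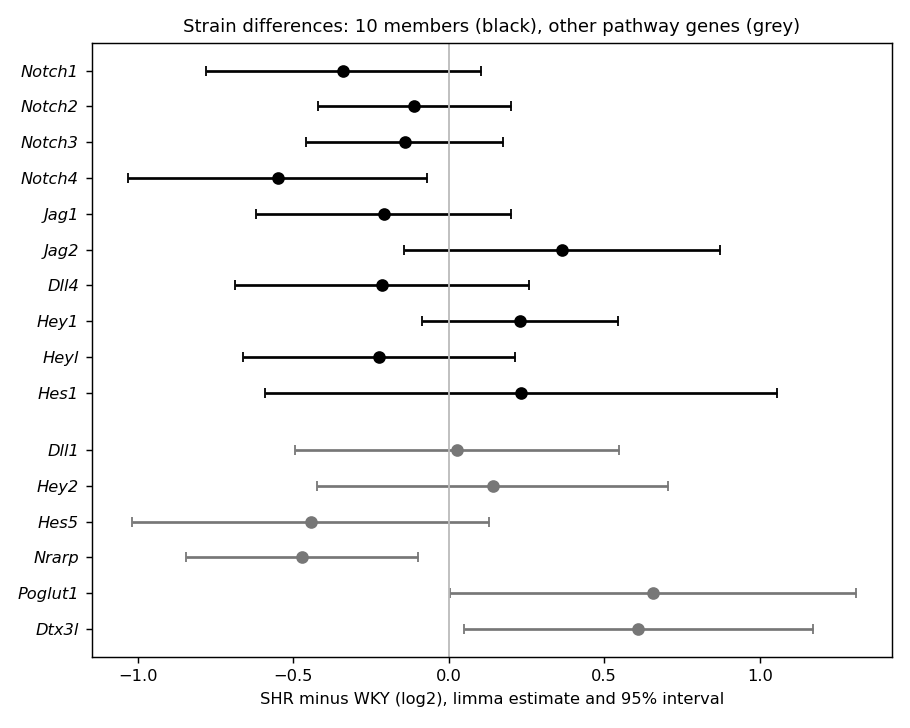
Difference SHR minus WKY on the log2 scale, as the limma estimate with its unadjusted 95% interval, for the 10 members (black) and 6 other pathway genes (grey). The interval of Notch4 is the only one among the members that does not hold 0, and none of the 16 genes passed after adjustment over all probe sets.

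Among the targets, Hey1 was the steady one. This gene encodes a repressor that helps to set arterial fate in endothelium and is also expressed in smooth muscle. It lay at 4.25, 4.20 and 4.30 in SHR and at 4.01, 3.94 and 4.11 in WKY. Every SHR array was above every WKY array, by a gap of 0.09. The difference was 0.23 ± 0.13 (SE; limma adjusted p = 0.923), a linear ratio of 1.17, with an interval from -0.09 to 0.55. Its residual SD of 0.07 stood at the 2.1 percentile of tested probe sets. Over the 6 fits that left out 1 array the difference stayed between 0.19 and 0.27.

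Strains that do not overlap were a common pattern on these arrays: 5.61% of tested probe sets were lower on every SHR array and 6.48% were higher. Of the 10 Notch genes 2 were separated on the lower side (Notch2 and Notch4) and 1 on the higher (Hey1), and none of the 3 passed the adjusted test. The count of separated members was 2 after a further quantile normalization or median centring. Leaving out 1 array gave 3 to 5, and leaving out SHR replicate 1 together with WKY replicate 3 gave 7. Fewer arrays separate more easily, and the share of all probe sets separated in these fits was not counted. These counts are therefore not a result about the Notch genes. An exact two-sided permutation test of 3 arrays against 3 cannot go below 0.1, so it could not call any gene here.

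Heyl, a HEY-family target gene expressed in vascular smooth muscle, lay at 4.26, 4.28 and 4.81 in SHR and at 4.71, 4.61 and 4.70 in WKY. The WKY arrays were close together, 2 SHR arrays lay below them and SHR replicate 3 was the highest of all. The difference was -0.22 ± 0.19 (SE; limma adjusted p = 0.923), and leaving out SHR replicate 3 made it -0.41. It shrank to -0.13 if SHR replicate 1 was left out and to -0.14 if SHR replicate 2 was.

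Hes1, a basic helix-loop-helix repressor with an unstable transcript, lay at 4.47, 3.67 and 3.63 in SHR and at 4.01, 4.07 and 2.98 in WKY. SHR replicate 1 was the highest array and WKY replicate 3 the lowest, with the other 4 between. The difference of 0.23 ± 0.35 (SE; limma adjusted p = 0.946) had a 95% interval from -0.59 to 1.06, the widest of the members. It turned negative without SHR replicate 1 (-0.04) or without WKY replicate 3 (-0.12), so its direction rests on these 2 arrays. Its residual SD of 0.55 stood at the 92.2 percentile of tested probe sets.

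**Figure D3:**
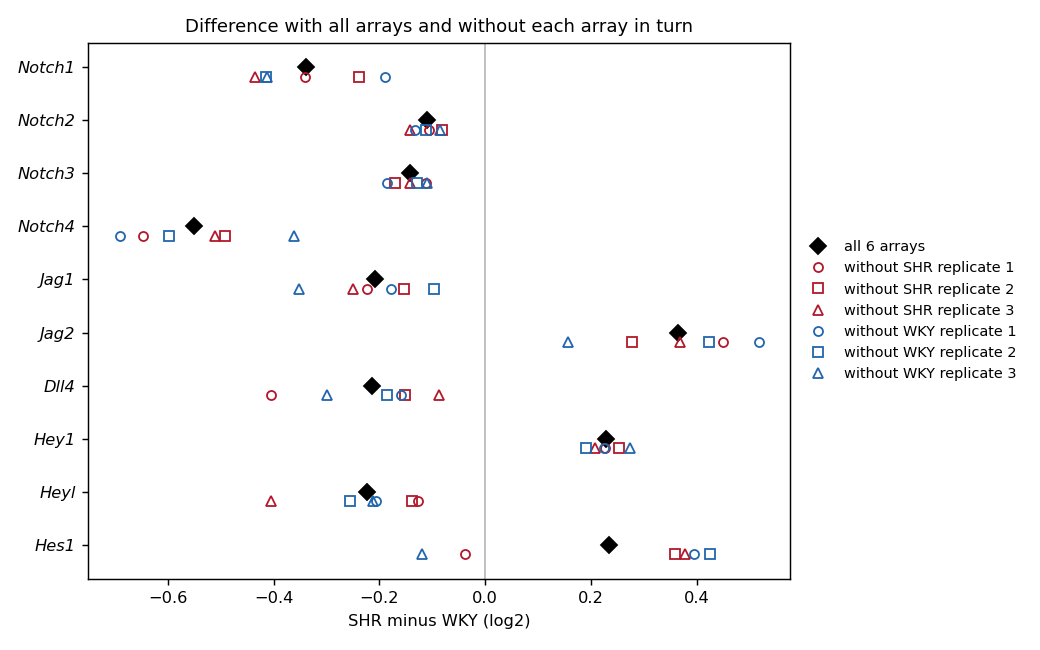
Difference SHR minus WKY on the log2 scale with all 6 arrays (black diamonds) and without each array in turn (open symbols) for the 10 members. The 9 members other than Hes1 keep their sign in all 6 fits, and Hes1 crosses 0 without SHR replicate 1 or WKY replicate 3.

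Both of these arrays stood apart in the whole table. WKY replicate 3 had the lowest fitted array weight (0.22, against 0.69 to 2.05 on the others), the highest median (2.52) and the lowest mean correlation with the other arrays (0.971), followed by SHR replicate 1 (0.976). With both left out, 2 arrays remained in each strain and 115 probe sets passed, but still none of the 10 members, whose smallest limma adjusted p was then 0.273 (Dll4, difference -0.49).

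The cell types of the wall were checked through marker lists. Smooth muscle markers (4 of 6 measured, all above the median on every array) had a mean log2 level of 9.59 to 9.90 in SHR and 9.80 to 10.05 in WKY. The 5 measured endothelial markers of 7 listed were also above the median on every array, with a mean of 4.43 to 6.40 in SHR and 5.55 to 6.18 in WKY. In whole tissue, fewer cells of a type and less RNA per cell cannot be told apart. White adipocyte markers (7 of 7 measured, 6 of them above the median on every array) ranged more widely, from 4.31 to 7.62 in SHR and from 6.10 to 7.29 in WKY. Macrophage markers ran from 2.89 to 5.33 in SHR, highest on SHR replicate 1, and from 3.71 to 4.72 in WKY. The Schwann cell and neuron list had 4 of 6 markers measured. Of these, Th and Dbh, genes of sympathetic neurons, were high on SHR replicate 1 alone. Th, the rate-limiting enzyme of catecholamine synthesis, lay at 5.92 there and at 1.13 to 1.68 on the other 5 arrays. Dbh, which makes noradrenaline, lay at 6.40 and at 1.79 to 2.80. S100b and Uchl1 were also highest there, but S100b was nearly as high on WKY replicate 1 (6.57 and 6.05). Uchl1 lay at 6.14, 4.81 and 4.48 in SHR and at 4.32, 4.40 and 3.58 in WKY. Brown adipocyte markers (4 of 5 measured) had a mean of 4.31 to 5.90 in SHR and 5.11 to 7.25 in WKY. Of these, Ucp1 ran from 1.74 on SHR replicate 3 to 9.43 on WKY replicate 1. Ppargc1a ran the other way, from 4.11 on WKY replicate 1 to 5.40 on SHR replicate 3. No marker of these lists passed the adjusted test. SHR replicate 1 is 1 of the 2 arrays that set the direction of Hes1, and the part of these markers in the Hes1 value was not tested.

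Dll4 put the 6 arrays in the same order as the mean of the endothelial markers Cdh5, Vwf, Tek, Tie1 and Esam: SHR replicate 1, then WKY replicates 1, 2 and 3, then SHR replicates 2 and 3. The endothelial mean on these arrays was 6.40, 6.18, 5.63, 5.55, 5.07 and 4.43. Taken singly, Cdh5 and Tie1 kept this order, and Vwf, Tek and Esam did not. The fibroblast marker mean had the same order as the endothelial mean, and the white adipocyte markers matched it at 4 of 6 arrays. The order is therefore not particular to endothelium. Notch4 matched the endothelial order at 0 of 6 arrays, a strict count in which a near rank is a miss. SHR replicates 2 and 3 ranked 6 and 5 for Notch4 and 5 and 6 for the endothelial mean, where 6 is the lowest array. These orders were compared after the values had been seen, and the part of cell content in the strain differences was not tested.

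**Figure D4:**
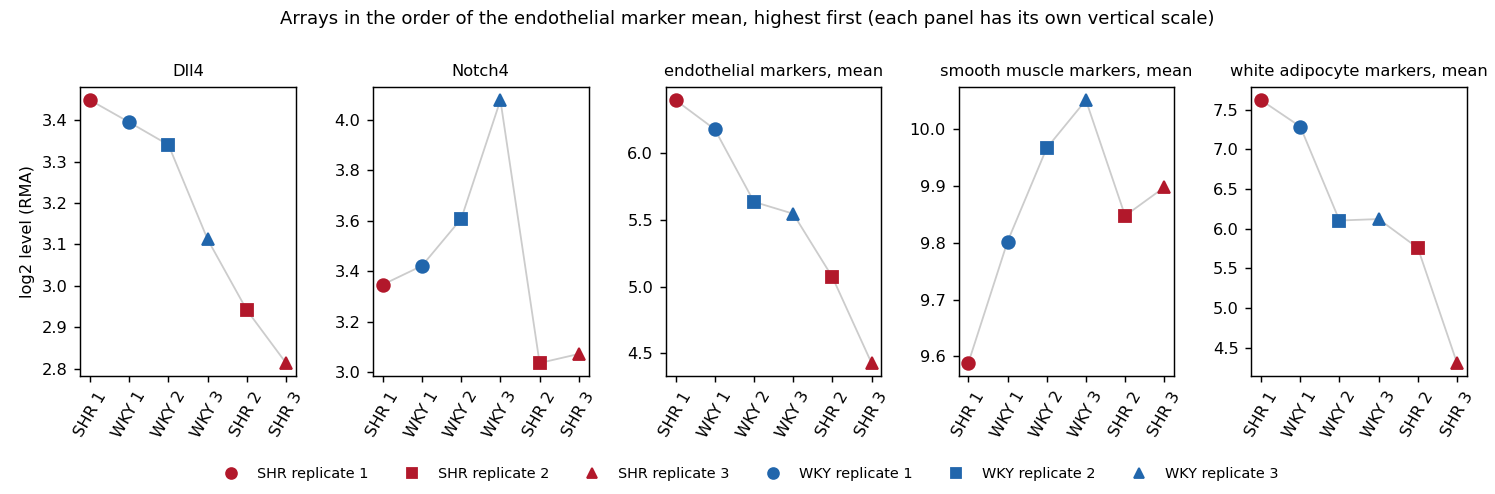
Log2 level of Dll4 and Notch4 and mean log2 level of the endothelial, smooth muscle and white adipocyte marker lists on each array, in the order of the endothelial mean. Dll4 falls with the endothelial mean from 3.45 to 2.81, whereas Notch4 peaks on WKY replicate 3 at 4.08.

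The genes whose values over the 6 arrays were most like those of Dll4, among 10609 tested named genes with a mean at or above the array medians, were Mfap5 (Pearson r = 0.997), Ntrk2 (0.996) and Triobp (0.996). Mfap5 encodes a microfibril protein of the elastic matrix and Ntrk2 a neurotrophin receptor. The closest to Notch3 were Pdlim2 (0.997), which encodes a cytoskeletal adaptor protein, Slc22a2 (0.987), an organic cation transporter, and Hr (0.985), a nuclear corepressor. Of the genes compared, 224 exceeded 0.9 with Dll4 and 107 with Notch3, and with only 6 arrays these values are a description of likeness.

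The rest of the pathway was read from a list of 53 further genes, of which 43 were tested and 10, Rbpj among them, were not analysed here. None of the 43 passed, higher or lower, against 0.0693% of all tested probe sets. Their median difference was -0.02, against 0.01 over all tested named genes, and 21 lay above 0 and 22 below. An unadjusted limma p under 0.05 was reached by 3 genes of the 43, 2 higher and 1 lower in SHR, where 5.55% of all tested probe sets reached it.

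By role, none of the 6 tested gamma-secretase and protease genes passed. The difference was 0.02 for Ncstn and 0.09 for Psenen, both subunits of gamma-secretase. It was 0.27 for Adam17, a protease that can shed the receptor, and -0.36 for Psen2, a catalytic subunit of gamma-secretase (limma adjusted p = 0.923). Among genes that add sugars to the receptor, Poglut1, an O-glucosyltransferase, lay between 4.99 and 5.47 in SHR and at 4.79, 4.80 and 3.91 in WKY. All SHR arrays were higher and WKY replicate 3 was far below the rest. The difference was 0.66 ± 0.28 (SE; limma adjusted p = 0.899), and 0.36 without WKY replicate 3. The Fringe genes Lfng and Mfng, which tune the choice of ligand, differed by -0.12 and -0.55 (limma adjusted p = 0.972 and 0.923).

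Of the genes for ubiquitin ligases and endocytosis, Dtx3l, a Deltex-family ligase, lay at 5.34, 5.12 and 4.84 in SHR and 4.92, 4.44 and 4.12 in WKY, with 1 SHR array below the highest WKY array (0.61 ± 0.24 SE; limma adjusted p = 0.882). Mib1, the ligase that ligands need in the signal-sending cell, differed by 0.12 (limma adjusted p = 0.928). The coactivators Maml1 and Maml2, partners of RBPJ and the intracellular domain, differed by -0.08 and -0.15 (limma adjusted p = 0.964 and 0.930).

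Among further targets, Nrarp, an ankyrin-repeat protein that limits Notch signalling, had the smallest p of the list. It lay at 2.85, 2.43 and 2.53 in SHR and 3.08, 3.09 and 3.06 in WKY. All SHR arrays were below the tightly grouped WKY arrays, and the difference was -0.47 ± 0.16 (SE; limma adjusted p = 0.792). The unadjusted limma p of Nrarp was above 0.05 without SHR replicate 2, SHR replicate 3, WKY replicate 1 or WKY replicate 2. Its level on SHR replicate 2 was near the median of that array (2.32). Hey2, the HEY-family gene of arterial smooth muscle, lay at 6.82 ± 0.36 (SD, n = 3) in SHR and 6.67 ± 0.32 in WKY, a difference of 0.14 ± 0.24 (SE; limma adjusted p = 0.950) that turned to -0.049 without SHR replicate 3 and -0.046 without WKY replicate 3. Hes5 lay at 1.52 ± 0.09 and 1.97 ± 0.48, below the array medians in both strain means, and is not shown to be above background. The ligand Dll1 differed by 0.03 ± 0.22 (SE; limma adjusted p = 0.990), and by -0.12 without SHR replicate 1 and -0.15 without WKY replicate 3.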

How the data were processed

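Thoracic aorta RNA was hybridised to Affymetrix Rat Gene 2.0 ST arrays. The values analysed are the log2 levels per probe set that the authors deposited. The submitters' processing notes name RMA (background correction, quantile normalization and summarization of probes) and the software Affymetrix Expression Console, version 1.2.1. The base of the logarithm was taken from RMA's definition and the range of the values. The genome build is not given in the sources used here. Strain and replicate number came from the sample titles. Of 28879 probe sets, 18511 have 1 gene symbol in the platform annotation and only those were named, with current symbols through RefSeq (GRCr8) by Entrez identifier.

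Probe sets with a mean at or above the 25th percentile (log2 1.17) were fitted across all 21659 of them with limma 3.58.1 in R 4.3.3 (lmFit, eBayes), with strain as the only term. Tests are two-sided, p-values were adjusted by Benjamini-Hochberg over all of them, and passing means an adjusted p under 0.05. The fit was tested on simulated data with known changes, drawn from limma's own variance model with equal spread on all arrays. That run does not cover arrays of unequal weight, as found here. A gene with several probe sets is given by the brightest. The 10 members, the list of 53 further pathway genes and the marker lists were chosen with earlier results of these data known. Named are all members, Dll1, Hey2, Hes5 and Nrarp, listed genes with an unadjusted p under 0.05, and the 3 genes most like Notch3 and Dll4; other pathway genes were named after their values were seen, as examples of their role. Alternatives covered the filter, normalization, centring, variance model, array weights, replicate block, probe-set choice, threshold and left-out arrays. With 3 arrays against 3, their number limits the precision.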

Additional observations from a re-analysis of the deposited data

How the results depend on the processing

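None of the 10 members passed under any of the 15 alternative fits, nor did a member at an adjusted p under 0.10. None of the 43 other pathway genes passed in any fit that tested it. The filter at the 50th percentile left some of the 43 untested, Hes5 among them. At an unadjusted p under 0.05, 1 member passed (Notch4), but 3 did with array weights, 3 without both SHR replicate 1 and WKY replicate 3, and 0 or 1 without 1 array. How many of all probe sets reached that unadjusted level was not counted in the alternative fits. The member counts at that level in those fits are therefore not a result about the Notch genes. In 5 fits the differences equal those with all arrays by construction. The other 10 fits reuse the same arrays, so their differences are not independent checks. Of the 100 member differences in these 10 fits, 96 kept their direction. The other 4 were those of Hes1 (0.23 with all arrays): -0.18 with array weights, -0.39 without both SHR replicate 1 and WKY replicate 3, and below 0 without either alone, with a range of -0.12 to 0.42 over the fits that left out 1 array. Dll1 reversed to -0.20 with array weights and -0.29 without both arrays, and ranged from -0.15 to 0.19 without 1 array. Hey2 ranged from -0.049 to 0.31 without 1 array, and was -0.046 without WKY replicate 3. The cause of these reversals was not tested beyond the arrays named. All tested probe sets gave 15 passing, 65 with array weights, 115 without both arrays and 2 to 5 without 1 array (fewer arrays in each fit). With the replicate block 3 probe sets passed and no member. The numbers are not shown to pair the arrays: deviations of same-numbered arrays correlated at 0.35, -0.08 and 0.23, and SHR replicate 2 correlated best with WKY replicate 3. The block changed no call of a Notch gene. With 3 arrays per strain, none of the 10 differences could be told from 0 by the adjusted test.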
